A study of Mus musculus with 88 samples.

Results

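Potassium channel genes were followed across 9 tissues of adult mice. They were taken as all genes whose symbol in the deposited gene annotation begins with Kcn followed by a lower-case letter, which gave 98 of the 24453 annotated genes. By their symbols 40 encode voltage-gated pore subunits, 12 auxiliary subunits of voltage-gated channels, 15 inward rectifiers, 14 two-pore channels, 8 calcium- or sodium-activated channels and 4 auxiliary subunits of the big-conductance (BK) channel. The remaining members are 4 noncoding transcripts and Kcnrg, a regulator of voltage-gated channels. The study sequenced polyadenylated RNA from knockouts of Cdh15 (KO), the gene of the muscle adhesion protein M-cadherin, and from wild type mice (WT). It holds 88 libraries, from 5 KO and 5 WT mice for each of heart, kidney, liver, lung, spleen and the extensor digitorum longus (EDL), soleus, tibialis and gastrocnemius muscles, with 4 WT mice in kidney and in spleen. The kidney of WT mouse 3793543 and the spleen of WT mouse 3805657 were not analysed here. All mice were male, of the strain labelled 100% C57BL/6NTac, 65 to 85 days old and fasted for 18 h. The labels name the knocked-out gene but not the piece of it that is missing, and the 7-digit numbers used below are the identifiers of single mice.

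Potassium channels let potassium leave or enter cells and so set the resting potential and end each action potential. In the heart the transient outward and delayed rectifier currents repolarise the myocyte, and inward rectifiers hold it at rest or open on vagal and metabolic signals. In the kidney, apical and basolateral potassium channels recycle or secrete the ion along the tubule, and in skeletal muscle they stabilise the excitable membrane of the fibre. Pore subunits assemble with auxiliary subunits such as KChIP, KCNE and BK beta proteins, which change trafficking and gating.

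Libraries held 8.206 to 25.144 M counts (M, the prefix mega), with a median of 19.024 M. Levels are given as deposited RPKM (counts scaled to exon length and to the library total) where genes are compared with each other, and as CPM, the counts scaled to a common library total, beside fold changes. Marker genes matched the tissue labels in their main features: 7 cardiac markers summed to 34640 to 36370 CPM in WT hearts and to at most 25.2 CPM in the WT tissues other than heart, lung and soleus, where the highest sums were 311 CPM in WT lung and 26.6 CPM in WT soleus. The 5 renal markers summed to 4888 to 6021 CPM in WT kidneys and to at most 1.19 CPM in WT hearts. Cdh15 itself stood at 1.89 to 4.06 CPM in KO soleus and at 12.5 to 21.0 CPM in WT soleus, with no overlap. The soleus is the slow muscle of the set, yet Myh4, the myosin of the fastest fibres, reached 28330 to 65550 CPM in WT soleus libraries. In KO soleus it reached 27370 to 38380 CPM in 4 libraries and 89.7 CPM in the library of mouse 3805666, which therefore stood apart from all other soleus libraries. Slow-fibre myosin Myh7 was at 3305 to 9337 CPM in KO soleus and 1858 to 4106 CPM in WT soleus. All tissues were sequenced in bulk, so fewer cells of a type and less RNA per cell cannot be told apart in any value that follows.

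Channel genes differed between tissues, while the 4 skeletal muscles had most of their leading ones in common. In WT mice 60 of the 98 members averaged at least 1 RPKM in some tissue, 23 of these in exactly 1 tissue and 0 in all 9. Lung held the most members at this level, 32 in KO and 34 in WT mice, followed by heart with 23 in both genotypes. Gastrocnemius held 18 in both, spleen 17 in KO and 18 in WT mice, soleus 16 and 17, EDL 15 and 17, tibialis 14 and 15, kidney 14 and 15, and liver 4 in both. At the other end, 2 members had no read in any library and 10 stayed under 3 reads in every library. For 55 of the 60 members the tissue with the highest mean was the same in KO and in WT mice. The heat map orders the members by family, not by tissue.

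**Figure D1:**
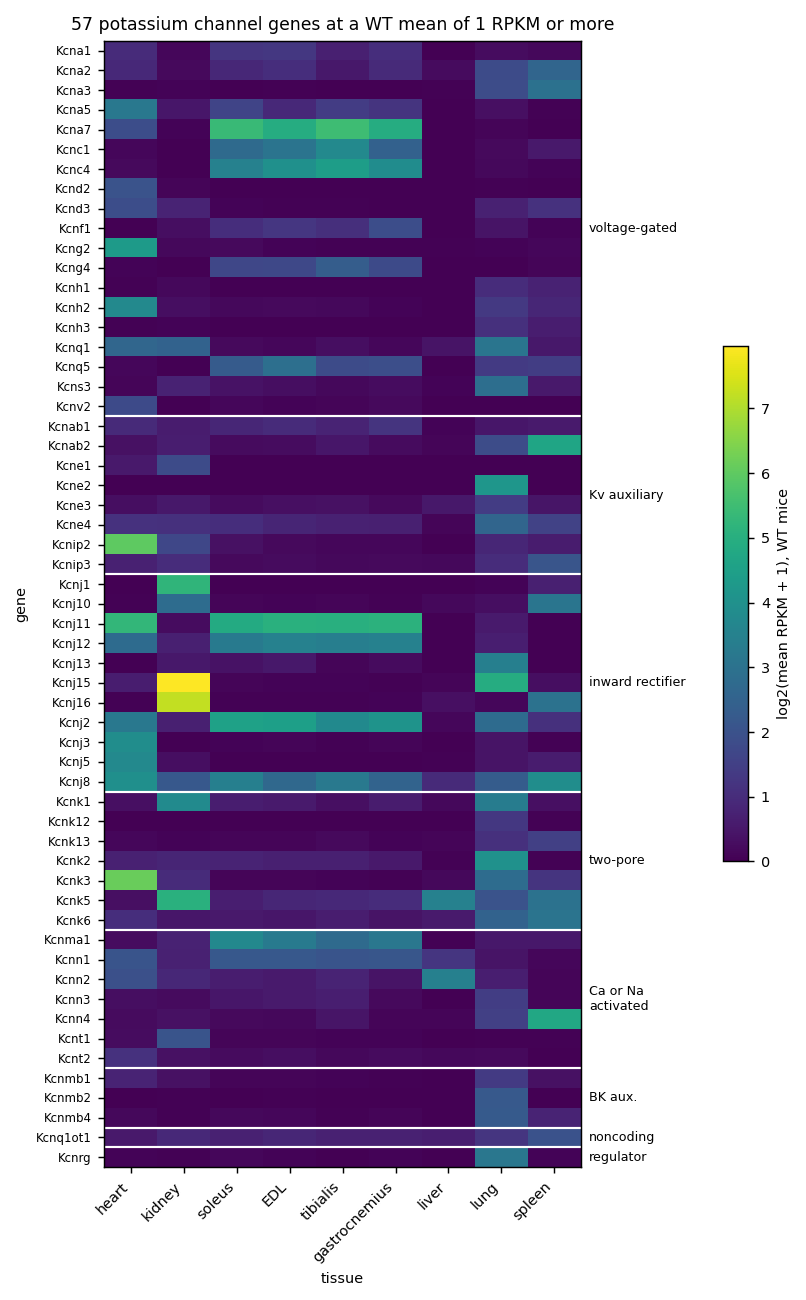
Mean level of 57 of the 60 potassium channel genes at 1 RPKM or more in some WT tissue, in WT mice only, 1 row per gene grouped by family and 1 column per tissue, coloured by log2(mean RPKM + 1). The brightest cells are Kcnj15 and Kcnj16 in kidney, at 248 and 148 RPKM, and Kcnk3 and Kcnip2 in heart, at 69.0 and 61.6 RPKM.

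The families filled the tissues unequally. Summed over its 15 members, the inward rectifier family reached 465 ± 55.5 RPKM in KO kidneys (SD, n = 5) and 443 ± 24.97 RPKM in WT kidneys (SD, n = 4). In heart the same sum was 94.5 ± 9.04 RPKM in KO and 93.2 ± 5.08 RPKM in WT mice (SD, n = 5 each), and in EDL 69.98 ± 4.79 RPKM in KO and 70.1 ± 7.94 RPKM in WT mice. The voltage-gated family was as abundant in muscle as in heart: 83.5 ± 7.94 RPKM in KO and 78.9 ± 7.90 RPKM in WT soleus, and 68.2 ± 5.13 RPKM in KO and 66.3 ± 4.15 RPKM in WT heart, but only 15.8 ± 1.80 RPKM in KO and 15.2 ± 1.31 RPKM in WT kidney. Auxiliary subunits of voltage-gated channels summed to 63.1 ± 6.23 RPKM in KO and 65.7 ± 4.37 RPKM in WT hearts, against 9.39 ± 1.34 RPKM in KO and 9.23 ± 1.41 RPKM in WT kidneys and 2.52 ± 0.45 RPKM in KO and 2.68 ± 0.36 RPKM in WT EDL. Two-pore channels, which carry background potassium current, summed to 71.4 ± 6.22 RPKM in KO and 71.3 ± 2.66 RPKM in WT hearts and to 2.58 ± 0.42 RPKM in KO and 2.52 ± 0.37 RPKM in WT EDL. These sums rest on a few members: Kcnk3 alone gave 69.0 RPKM of the two-pore sum of hearts, and Kcnip2 61.6 RPKM of the WT heart sum of auxiliary subunits.

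To compare heart, EDL, soleus and kidney, the 19 WT libraries of these tissues were fitted together. EDL was taken as fast muscle and soleus as the slower one. The WT soleus libraries still held more fast-fibre marker RNA, 45190 to 87890 CPM, than slow-fibre marker RNA, 3488 to 6732 CPM. A gene was called at a Benjamini-Hochberg adjusted p under 0.05 and at least 2-fold, and 58 members had enough reads to be tested. Fold changes use TMM scaling, which sets the bulk of genes to no change, whereas the CPM printed beside them do not, so the 2 can differ. Against plain library totals TMM moved the median log2 fold change of all genes by 0.34 for heart against kidney, by -0.33 for heart against EDL, by -0.27 for heart against soleus, by -0.68 for kidney against EDL, by -0.61 for kidney against soleus and by -0.06 for soleus against EDL. All adjusted p-values are from the edgeR quasi-likelihood test.

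Between heart and kidney, 32 members were higher and 16 lower in heart, while 20.2% of all 15035 tested genes were higher and 22.7% lower, 42.9% in either direction. The median log2 fold change of the 58 tested members was 1.79, against -0.03 over all genes. Of the 25 tested voltage-gated members 17 were higher and 5 lower in heart, and the 11 tested inward rectifiers split into 6 higher and 5 lower. Between heart and EDL, 25 members were higher and 18 lower in heart, with a background of 19.6% and 14.1%. With library totals in place of TMM that split became 26 higher and 12 lower, for which the share of all genes was not counted. Between heart and soleus, 21 were higher and 14 lower, with a background of 16.7% and 11.9%. Kidney had 21 members higher and 22 lower than EDL (background 29.7% and 21.9%, 51.6% either way) and 22 higher and 22 lower than soleus (background 28.1% and 21.1%). Soleus and EDL differed at 1 member, Kcna5, which was higher in soleus, and at 0 members lower in soleus, where the background was 2.4% and 0.552%, 2.95% either way. Median log2 fold changes of the members were 0.26 for heart against EDL, 0.30 for heart against soleus, -0.03 for kidney against EDL, -0.15 for kidney against soleus and 0.03 for soleus against EDL, with medians over all genes of 0.03, 0.04, 0.08, 0.06 and -0.02.

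Read together, the 6 comparisons placed 16 members above kidney, EDL and soleus in heart, 12 above the other 3 tissues in kidney, and 10 above heart and kidney in both EDL and soleus. A further reading gave 19 members that were higher in heart, EDL and soleus than in kidney, a set that overlaps the others. These joint counts were made for the members only. The matching share of all tested genes was not counted, so the sets describe the members without a background. Upstream sequence is shown for 2 abundant members of each of the first 3 sets, among those with an entry in the RefSeq promoter table of GRCm38.p6 (97 entries for 72 members), to show what lies before genes of such opposite patterns. Each line gives the 120 bases before the annotated start, 5′ to 3′ on the strand of the gene, with every CG dinucleotide in capitals.
Kcnip2: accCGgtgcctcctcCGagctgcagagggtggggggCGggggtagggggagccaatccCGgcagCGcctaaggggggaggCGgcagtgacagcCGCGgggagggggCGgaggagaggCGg
Kcnj3: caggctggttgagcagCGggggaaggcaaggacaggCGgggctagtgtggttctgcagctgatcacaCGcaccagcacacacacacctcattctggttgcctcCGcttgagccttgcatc
Kcnj15: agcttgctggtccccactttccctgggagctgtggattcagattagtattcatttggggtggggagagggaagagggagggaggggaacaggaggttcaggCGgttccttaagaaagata
Kcnj16: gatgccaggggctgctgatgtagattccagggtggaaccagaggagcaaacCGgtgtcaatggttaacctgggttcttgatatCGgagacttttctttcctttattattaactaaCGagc
Kcna7: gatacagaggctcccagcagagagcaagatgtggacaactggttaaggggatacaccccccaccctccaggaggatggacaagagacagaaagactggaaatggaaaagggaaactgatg
Kcnj2: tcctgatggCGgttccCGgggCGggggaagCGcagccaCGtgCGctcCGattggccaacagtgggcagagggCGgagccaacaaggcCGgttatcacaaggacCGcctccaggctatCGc
The windows lie at chr19:45816064-45816183 (minus strand) for Kcnip2, chr2:55435850-55435969 for Kcnj3, chr16:95257438-95257557 for Kcnj15, chr11:110967913-110968032 for Kcnj16, chr7:45405840-45405959 for Kcna7 and chr11:111066044-111066163 for Kcnj2, the last 5 on the plus strand. That of Kcnip2 belongs to a start 3772 bases from the deposited one, and the other 5 end at the deposited start. They ranged from 0 CG in Kcna7 and 1 in Kcnj15 to 10 in Kcnip2 and 11 in Kcnj2, so that the 2 muscle members had the fewest and the most. The median was 5.5 CG per window over the 72 members with an entry and 3 over all 32851 promoters. Members entered with 1 window each, the one nearest the deposited start, whereas the 32851 include every entry of a gene. The 2 medians are thus over unlike units and cannot be set against each other. It was 6 over 11 heart members, 3 over 7 kidney members and 7 over 9 muscle members. In the 250 bases before the start, searched on both strands, the muscle E-box CAGCTG was found in 22.7% of 97 member promoters and in 13% of all promoters, the MEF2 box in 2.06% and 3.2%, the M-CAT letters (CATTCC) in 14.4% and 12.6%, the GATA letters (AGATAA) in 3.09% and 9.99%, and the HNF1 half-site GTTAAT in 4.12% and 6.43%. The E-box was in 2 of 11 promoters of heart members, 2 of 10 of kidney members and 2 of 10 of muscle members, and the MEF2 box in 0 of each.

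The heart was led by Kcnk3, Kcnip2, Kcnj11 and Kcng2. Kcnk3 (TASK-1, Entrez 16527, chr5:30588170-30625270 on mm10), a two-pore background channel closed by acid, stood at 70, 70.9, 71.1, 58.4 and 74.8 RPKM in KO hearts, against 67.5, 71.2, 72, 67.4 and 66.6 RPKM in WT hearts. The groups overlapped, and the lowest and highest hearts were both KO. In WT mice it averaged 254 ± 8.89 CPM in heart (SD, n = 5), against 3.66 ± 1.30 CPM in kidney (SD, n = 4), a log2 fold change of 6.44 (SE 0.22, edgeR adjusted p = 4.02e-16). Against EDL it was 9.48 (SE 0.26). Its span overlaps a gene on the opposite strand, Gm9899, and the sources used here do not say whether reads were counted by strand.

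Kcnip2 (KChIP2, Entrez 80906) is the calcium-binding partner that brings Kv4 channels to the surface and enlarges the transient outward current. It stood at 50, 57.3, 57.2, 67.1 and 64.2 RPKM in KO hearts, against 66.1, 57, 57.9, 60.9 and 66.2 RPKM in WT hearts, with full overlap. WT hearts averaged 134 ± 9.57 CPM and WT kidneys 4.74 ± 2.57 CPM, a log2 fold change of 5.16 (SE 0.28). The pore subunits of that current were far less abundant. Kcnd2 (Kv4.2) averaged 3.21 ± 0.32 RPKM in KO and 3.09 ± 0.70 RPKM in WT hearts, and at most 0.09 RPKM in the WT kidney, EDL and soleus means. Kcnd3 (Kv4.3) was deposited at 2.68 ± 0.21 RPKM in KO and 2.72 ± 0.29 RPKM in WT hearts, but its deposited RPKM is 0.274 to 0.331 of what its counts and annotated exon length give, so its level cannot be set against that of Kcnd2. Between heart and kidney Kcnd2 differed by 5.46 (SE 0.26, edgeR adjusted p = 2.07e-14) on the log2 scale.

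The acetylcholine-gated inward rectifier of atrial and pacemaker cells is built from Kcnj3 (GIRK1) and Kcnj5 (GIRK4). Kcnj3 stood at 18.6, 15.6, 17.9, 12.8 and 13.5 RPKM in KO hearts, against 12, 10.7, 17.6, 15.3 and 14.2 RPKM in WT hearts. Kcnj5 stood at 12.9, 13.1, 14.4, 12 and 14.6 RPKM in KO hearts, against 11.7, 12, 14.3, 13.6 and 11 RPKM in WT hearts. Within a heart the ratio of Kcnj3 to Kcnj5 was 0.92 to 1.44 in KO and 0.89 to 1.29 in WT mice, so neither subunit exceeded the other by 1.5 times per length. Kcnj3 averaged 72.2 ± 14.1 CPM in heart (SD, n = 5) against 0.0890 ± 0.0725 CPM in kidney (SD, n = 4), a log2 fold change of 9.85 (SE 0.27, edgeR adjusted p = 1.25e-18). Kcnj5, at 56.4 ± 6.33 CPM in WT hearts, had 0 reads in all 5 WT EDL libraries, so it was at least 416.5-fold higher in heart when 3 reads are allowed to each EDL library. The atrial light chain Myl7 was at 87.2 to 168 CPM in KO and 48.6 to 134 CPM in WT hearts, and the part of the atrial share in the levels of Kcnj3 and Kcnj5 was not tested. Over the 10 hearts, of 23 members at 1 RPKM or more none had a correlation with Myl7 past a Benjamini-Hochberg adjustment over the 23. Kcnj3 came nearest, with Pearson's r = 0.72 (permutation p = 0.0199, adjusted p = 0.289), Spearman's rho = 0.79 (permutation p = 0.00865, adjusted p = 0.148) and r = 0.87 without the 2 hearts farthest from the median of Myl7. With 5 hearts per genotype no correlation is given within genotypes.

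Several delayed rectifier and modifier subunits completed the heart set. Kcng2 (Kv6.2), a silent subunit that joins other voltage-gated pore subunits, stood at 19.5, 19.3, 20.7, 18.9 and 20.4 RPKM in KO hearts, against 18.4, 19.3, 19.3, 19.9 and 18.3 RPKM in WT hearts. The groups overlapped within a narrow range. Kcng2 was higher in heart than in kidney by 7.56 (SE 0.24), than in EDL by 7.86 (SE 0.24) and than in soleus by 6.80 (SE 0.23) on the log2 scale. Another silent subunit, Kcnv2 (Kv8.2), averaged 2.56 ± 0.21 RPKM in KO and 2.45 ± 0.70 RPKM in WT hearts. Kcnv2 had 0 reads in all 4 WT kidneys, so WT hearts, at 12.4 ± 3.57 CPM, were at least 90.9-fold higher with 3 reads allowed to each kidney library. Kcnh2 (ERG), the pore of the rapid delayed rectifier and the target of many drugs that prolong the QT interval, stood at 15.8, 12.2, 14.5, 9.24 and 13.3 RPKM in KO hearts, against 12, 11.6, 14.6, 12 and 11.4 RPKM in WT hearts. Kcnh2 was 6.18 higher in heart than in kidney on the log2 scale. Kcna5 (Kv1.5), the ultrarapid delayed rectifier, stood at 7.17, 6.08, 7.66, 8.59 and 9.89 RPKM in KO hearts, against 5.95, 7.84, 8.91, 8.81 and 9.43 RPKM in WT hearts. Kcna4 (Kv1.4) was rare, at 0.28 ± 0.05 RPKM in KO and 0.32 ± 0.06 RPKM in WT hearts, but had 0 reads in all WT kidney and EDL libraries.

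The slow delayed rectifier joins the pore Kcnq1 with the small subunit Kcne1, and these partners parted between heart and kidney. Kcnq1 averaged 5.66 ± 1.15 RPKM in KO and 5.12 ± 0.51 RPKM in WT hearts, and 4.79 ± 0.76 RPKM in KO and 4.72 ± 0.67 RPKM in WT kidneys. The difference between WT heart and WT kidney, 0.46 on the log2 scale (SE 0.16, edgeR adjusted p = 0.011), was under 2-fold. Kcne1 stood at 0.551, 0.287, 0.361, 0.372 and 0.457 RPKM in KO hearts, against 0.44, 0.275, 0.533, 0.439 and 0.551 RPKM in WT hearts. In kidney it stood at 2.15, 2.94, 3.53, 1.85 and 2.07 RPKM in KO mice, against 2.77, 2.42, 2.57 and 2.43 RPKM in WT mice. No heart reached any kidney value, and Kcne1 fell by 2.16 on the log2 scale in WT heart relative to WT kidney (SE 0.18, edgeR adjusted p = 6.82e-08). Per Kcnq1 transcript of equal length the median Kcne1 level was 0.07 in KO and 0.10 in WT hearts, and 0.55 in KO and 0.56 in WT kidneys. Kcne1 had 0 reads in every EDL and soleus library of either genotype. The noncoding Kcnq1ot1, which overlaps Kcnq1 on the opposite strand, was at 37.4 ± 2.59 CPM in WT hearts and 74.4 ± 4.10 CPM in WT kidneys, so a share of either count cannot be assigned.

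**Figure D2:**
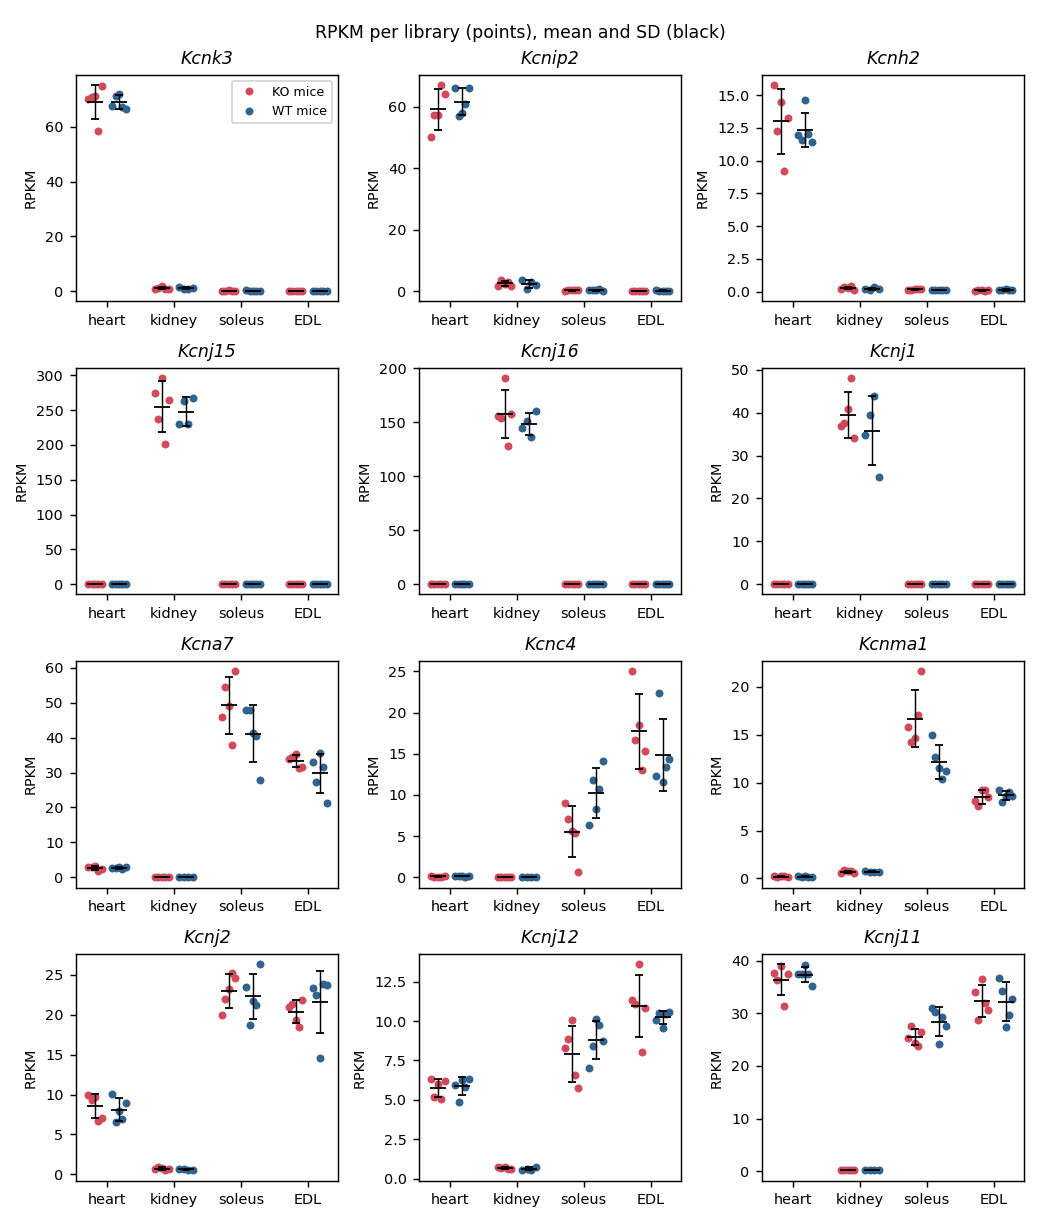
Deposited RPKM of 12 members in heart, kidney, soleus and EDL on linear axes, 1 panel per gene and 1 point per library, KO in red left of WT in blue, with mean and SD in black. Kcnj15 reaches 201 to 296 RPKM in KO and 229 to 267 RPKM in WT kidneys, Kcnk3 58.4 to 74.8 RPKM in KO and 66.6 to 72 RPKM in WT hearts, and Kcna7 31.4 to 35.2 RPKM in KO and 21.3 to 35.5 RPKM in WT EDL.

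The kidney was dominated by 2 inward rectifiers. Kcnj15 (Kir4.2, Entrez 16516) forms a basolateral channel of the proximal tubule, and it stood at 275, 238, 296, 201 and 265 RPKM in KO kidneys, against 230, 263, 229 and 267 RPKM in WT kidneys. Kcnj16 (Kir5.1, Entrez 16517) pairs with Kir4.1 or Kir4.2 and makes the pair sensitive to pH, and it stood at 156, 154, 191, 128 and 158 RPKM in KO kidneys, against 145, 151, 136 and 161 RPKM in WT kidneys. The ranges overlapped for both genes, with the lowest and the highest kidney in the KO group each time. Kcnj15 averaged 2.74 ± 0.72 CPM in WT heart and 1219 ± 105 CPM in WT kidney, which put heart lower by a log2 fold change of -8.47 (SE 0.21, edgeR adjusted p = 1.47e-18). Kcnj16 averaged 0.117 ± 0.0461 CPM in WT heart and 531 ± 35.7 CPM in WT kidney, a log2 fold change of -11.72 (SE 0.14, edgeR adjusted p = 3.07e-24). The third partner, Kcnj10 (Kir4.1), which builds the basolateral conductance of the distal tubule, was at 5.88, 7.41, 8.72, 7.3 and 5.55 RPKM in KO kidneys, against 6.7, 5.88, 6.51 and 4.78 RPKM in WT kidneys. It was thus far below both Kcnj15 and Kcnj16 per length, and it was lower in heart by -7.12 (SE 0.32) on the log2 scale.

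Kcnj1 (ROMK, Entrez 56379), the apical channel that recycles and secretes potassium in the thick ascending limb and collecting duct, stood at 36.8, 37.7, 40.8, 48.1 and 34.1 RPKM in KO kidneys, against 34.8, 39.4, 43.9 and 25.1 RPKM in WT kidneys. It had 0 reads in all WT EDL and WT soleus libraries, so kidney was at least 808-fold above EDL and at least 654.3-fold above soleus with 3 reads allowed to each muscle library. In WT hearts no library exceeded 0.0561 CPM. Two-pore channels were the next most abundant: Kcnk5 (TASK-2), an alkali-activated channel of the proximal tubule, stood at 30.7, 20.3, 28.5, 27.3 and 26.8 RPKM in KO kidneys, against 22.7, 37.5, 33 and 35.9 RPKM in WT kidneys. Kcnk1 (TWIK-1) stood at 13.7, 12.4, 14.9, 13.5 and 12.6 RPKM in KO kidneys, against 15.1, 13.4, 12.1 and 11.4 RPKM in WT kidneys. Relative to WT kidney, WT heart was lower in Kcnk5 by a log2 fold change of -6.58 (SE 0.21, edgeR adjusted p = 4.5e-17) and in Kcnk1 by -5.38 (SE 0.25). The sodium-activated channel Kcnt1 averaged 3.92 ± 0.56 RPKM in KO and 3.20 ± 0.93 RPKM in WT kidneys, and Kcnab3, Kcng1 and Kcnh1, also of the kidney set, were at most 0.51 RPKM in WT kidneys.

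In 2 pairs of genome neighbours, chosen after their values were seen, the patterns were opposed. Kcnj16 (chr11:110968033-111027967) lies just before Kcnj2 (chr11:111066164-111076825) on the plus strand, and the 2 were almost mirror images: Kcnj16 averaged 148 RPKM in WT kidney and 0.04 RPKM in WT EDL, and Kcnj2 0.63 RPKM in WT kidney and 21.6 RPKM in WT EDL. On chromosome 9, Kcnj5 (chr9:32314783-32344237, minus strand) lies beside Kcnj1 (chr9:32372418-32399194, plus strand). Kcnj5 averaged 12.5 RPKM in WT heart and 0.23 RPKM in WT kidney, while Kcnj1 averaged 0.01 RPKM in WT heart and 35.8 RPKM in WT kidney.

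In WT mice EDL and soleus shared most of their leading channel genes. The WT soleus libraries also held much of the fast myosin Myh4, at 28330 to 65550 CPM. The KO soleus library of mouse 3805666, which held little Myh4, departed from EDL in several of these genes, as described below. Kcna7 (Kv1.7, Entrez 16495, chr7:45405960-45411382), a voltage-gated channel known from heart and skeletal muscle, stood at 45.9, 54.5, 49, 37.7 and 59 RPKM in KO soleus, against 47.8, 47.9, 41.4, 40.3 and 28 RPKM in WT soleus. In EDL it stood at 33.9, 34.3, 35.2, 31.4 and 31.5 RPKM in KO mice, against 33.1, 27.3, 35.5, 31.5 and 21.3 RPKM in WT mice. The lowest value in both muscles came from a WT mouse, and 4 of the 5 WT soleus libraries lay above every EDL library. Heart carried less of it, 9.47 ± 0.91 CPM in WT heart against 104 ± 19.5 CPM in WT EDL (SD, n = 5 each), a log2 fold change of -3.79 (SE 0.16, edgeR adjusted p = 4.43e-14), and WT kidney held 0.157 ± 0.0806 CPM (SD, n = 4). Tibialis averaged 44.7 ± 2.93 RPKM in KO and 44.3 ± 3.96 RPKM in WT mice, and gastrocnemius 28.7 ± 2.91 RPKM in KO and 29.5 ± 2.75 RPKM in WT mice (SD, n = 5 each).

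Kcnc4 (Kv3.4, Entrez 99738), a fast-inactivating high-threshold channel, stood at 25, 16.7, 18.5, 13 and 15.3 RPKM in KO EDL, against 12.4, 22.4, 11.6, 13.4 and 14.4 RPKM in WT EDL. Its relative Kcnc1 (Kv3.1) stood at 8.16, 8.72, 12.6, 9.25 and 8.74 RPKM in KO EDL, against 8.27, 6.8, 10.6, 6.59 and 4.75 RPKM in WT EDL. Both were almost missing from heart, where WT means were 0.440 ± 0.124 CPM for Kcnc4, a log2 fold change of -6.95 against WT EDL (SE 0.30, edgeR adjusted p = 1.23e-13), and 0.730 ± 0.248 CPM for Kcnc1, with -6.48 (SE 0.28). Kcnma1, the pore of the BK channel that voltage and calcium open together, stood at 8.09, 7.59, 9.21, 9.25 and 8.51 RPKM in KO EDL, against 9.21, 7.95, 8.63, 9.02 and 8.55 RPKM in WT EDL. Kcnma1 averaged 1.17 ± 0.30 CPM in WT heart and 51.4 ± 2.82 CPM in WT EDL, a log2 fold change of -5.78 (SE 0.13, edgeR adjusted p = 8.6e-20). The smooth muscle partner of the pore, Kcnmb1, ran the other way. Kcnma1 was at 0.16 to 0.44 of the Kcnmb1 level in WT hearts but at 94.8 to 200 times it in WT EDL. The sum of 3 smooth muscle markers was 254 to 341 CPM in WT hearts and 39.95 to 80.3 CPM in WT EDL, and its part in this contrast was not tested. The M-type channel gene Kcnq5 and the silent subunits Kcng4 and Kcnf1 were also muscle genes, with log2 fold changes for WT heart against WT EDL of -6.38 (SE 0.27) for Kcnq5 and -5.64 (SE 0.29) for Kcng4, and with 0 Kcnf1 reads in all WT hearts, at least 44.0-fold below EDL. Kcnn3 (SK3) was lower in heart than in EDL by -1.50 (SE 0.26), a value that turned to 0.20 with gastrocnemius in place of EDL.

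Other inward rectifiers were shared by heart and muscle and, except for Kcnj8, scarce in kidney. Kcnj11 (Kir6.2), the pore of the ATP-sensitive channel, stood at 37.7, 36.3, 39, 31.4 and 37.5 RPKM in KO hearts, against 37.4, 37.5, 39.1, 37.5 and 35.2 RPKM in WT hearts, and averaged 32.3 ± 3.03 RPKM in KO and 32.2 ± 3.71 RPKM in WT EDL (SD, n = 5 each). Heart and EDL did not pass the test at -0.12 (SE 0.08, edgeR adjusted p = 0.192), whereas heart was 7.93 above kidney on the log2 scale (SE 0.14, edgeR adjusted p = 6.51e-22). The vascular pore Kcnj8 (Kir6.1) was at 14.6, 15, 15.5, 11.9 and 12.3 RPKM in KO hearts, against 15.7, 15.2, 14.7, 13.6 and 13.6 RPKM in WT hearts, and averaged 3.36 ± 0.41 RPKM in KO and 3.58 ± 0.66 RPKM in WT kidneys. In EDL Kcnj8 averaged 5.42 ± 0.46 RPKM in KO and 5.40 ± 1.46 RPKM in WT mice, nearer to kidney than to heart. Kcnj11 exceeded it 2.38 to 2.76 times in WT hearts and 4.64 to 8.86 times in WT EDL, while in WT kidneys it was at 0.05 to 0.08 of Kcnj8. Kcnj2 (Kir2.1) and Kcnj12 (Kir2.2) set the resting potential. Kcnj2 was at 21, 21.4, 19.3, 18.5 and 21.9 RPKM in KO EDL, against 23.3, 22.5, 14.6, 23.9 and 23.7 RPKM in WT EDL, and averaged 8.55 ± 1.53 RPKM in KO and 8.11 ± 1.46 RPKM in WT hearts. Muscle thus held more of both than heart, with log2 fold changes for WT heart against WT EDL of -1.72 (SE 0.12, edgeR adjusted p = 2.9e-11) for Kcnj2 and -1.16 (SE 0.10) for Kcnj12, the second of which became -0.82 under library totals and so fell under 2-fold. The median ratio of Kcnj2 to Kcnj12 was 1.59 in KO and 1.34 in WT hearts, 2.48 in KO and 2.23 in WT soleus, and 1.93 in KO and 2.24 in WT EDL.

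Partners and other excitability genes were counted beside the channels. Of all tested genes, 20.2% were higher and 22.7% lower in WT heart than in WT kidney. For heart against EDL these shares were 19.6% and 14.1%, and for kidney against EDL 29.7% and 21.9%. Of 10 tested channel partners, 5 were higher and 1 lower in WT heart than in WT kidney, and 0 were higher and 8 lower in WT kidney than in WT EDL. Abcc9 (SUR2), the sulfonylurea receptor that coats Kir6 pores in heart and muscle, averaged 327 ± 6.30 CPM in WT heart, 330 ± 32.96 CPM in WT EDL and 19.5 ± 2.19 CPM in WT kidney, so it lay with Kcnj11. Its relative Abcc8 (SUR1) averaged 29.1 ± 2.52 CPM in WT heart and 2.75 ± 0.92 CPM in WT EDL, 3.07 higher in heart on the log2 scale (SE 0.17, edgeR adjusted p = 4.73e-13). Of 21 tested sodium, calcium, chloride and pacemaker channels, pumps and ryanodine receptors, 16 were higher and 2 lower in heart than in kidney, and 6 were higher and 12 lower in heart than in EDL. The muscle sodium channel Scn4a averaged 33.4 ± 2.93 CPM in WT heart and 443 ± 47.8 CPM in WT EDL. Of 20 genes of renal salt transport, 15 were higher and 2 lower in WT kidney than in WT EDL, and Slc12a1, the cotransporter that works beside ROMK in the thick ascending limb, averaged 806 ± 271 CPM in WT kidney with 0 reads in all WT EDL libraries. The renal list was picked for its role in the kidney, so its direction was largely set in advance.

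Soleus and EDL differed little in WT mice. Kcna5 was at 4.67, 7.09, 6.76, 7.45 and 5.19 CPM in WT soleus, against 1.87, 2.32, 2.23, 3.97 and 2.74 CPM in WT EDL, with no overlap. Its means were 6.25 ± 1.23 CPM in WT soleus and 2.63 ± 0.81 CPM in WT EDL (SD, n = 5 each), a log2 fold change of 1.18 (SE 0.18, edgeR adjusted p = 0.000128). A further 8 members passed an adjusted p of 0.05 but stayed under 2-fold. Of these Kcnma1 kept the muscles apart, at 15, 12.6, 11.5, 10.4 and 11.2 RPKM in WT soleus, against the 7.95 to 9.21 RPKM of WT EDL, with 0.41 (SE 0.09, edgeR adjusted p = 0.0024). Kcnj8 was higher by 0.81 and also kept the muscles apart. No soleus library of either genotype was under 7.435 RPKM of Kcnj8, and no EDL library was above 7.373 RPKM. Kcnq5, Kcnc4, Kcnq1ot1 and Kcnj12 were lower in soleus by -0.81, -0.57, -0.33 and -0.28. Among the partners Lrrc52, an auxiliary subunit of calcium- and voltage-activated channels, was higher in soleus, at 11.8 ± 4.90 CPM against 1.41 ± 0.62 CPM in EDL, a log2 fold change of 2.97 (SE 0.32, edgeR adjusted p = 2.79e-06). The fast-fibre marker sum was 45190 to 87890 CPM in WT soleus and 92760 to 112600 CPM in WT EDL, and the slow-fibre sum 3488 to 6732 CPM in WT soleus and 17.9 to 119 CPM in WT EDL, and the part of fibre makeup in these differences was not tested.

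The tissue comparisons were repeated in the KO mice, which are other animals. Of the 32 members higher in WT heart than in WT kidney 29 were called again in KO mice, and of the 16 lower members 16. The background in KO mice was 20% higher and 22.4% lower. Each background in this paragraph is the share of all genes called in KO mice, whatever their call in WT mice. How many of all genes called in WT mice were called again was not counted. The repeat of the members is therefore not set against that of other genes. For heart against EDL 23 of 25 higher and 16 of 18 lower members were called again (background 20% and 13.2%), and for heart against soleus 20 of 21 and 14 of 14 (14.9% and 11%). For kidney against EDL 20 of 21 higher and 22 of 22 lower members were called again (29.7% and 21.3%), and for kidney against soleus 18 of 22 and 20 of 22 (27.2% and 20.9%). The 3 members that lost the call between heart and kidney were Kcnc4, Kcnd3os and Kcng4. For soleus against EDL the KO mice gave 5 higher and 5 lower members, against a background of 4.81% and 1.64%, with Kcna5 the 1 shared call. Kcne4, Kcng2 and Kcnj15 were also among the higher ones in KO mice, and Kcnc4, Kcnf1, Kcnj13 and Kcnu1 among the lower ones. Without the soleus library of mouse 3805666 there were again 5 higher members, among them Kcna5, Kcng2, Kcne4 and Kcne1l, and 4 lower ones, among them Kcnj13, Kcnu1 and Kcnc4, with backgrounds of 3.97% and 1.13%. Kcnc4 then fell by 1.48 (SE 0.17). Whether the difference between the muscles depends on genotype was not tested.

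**Figure D3:**
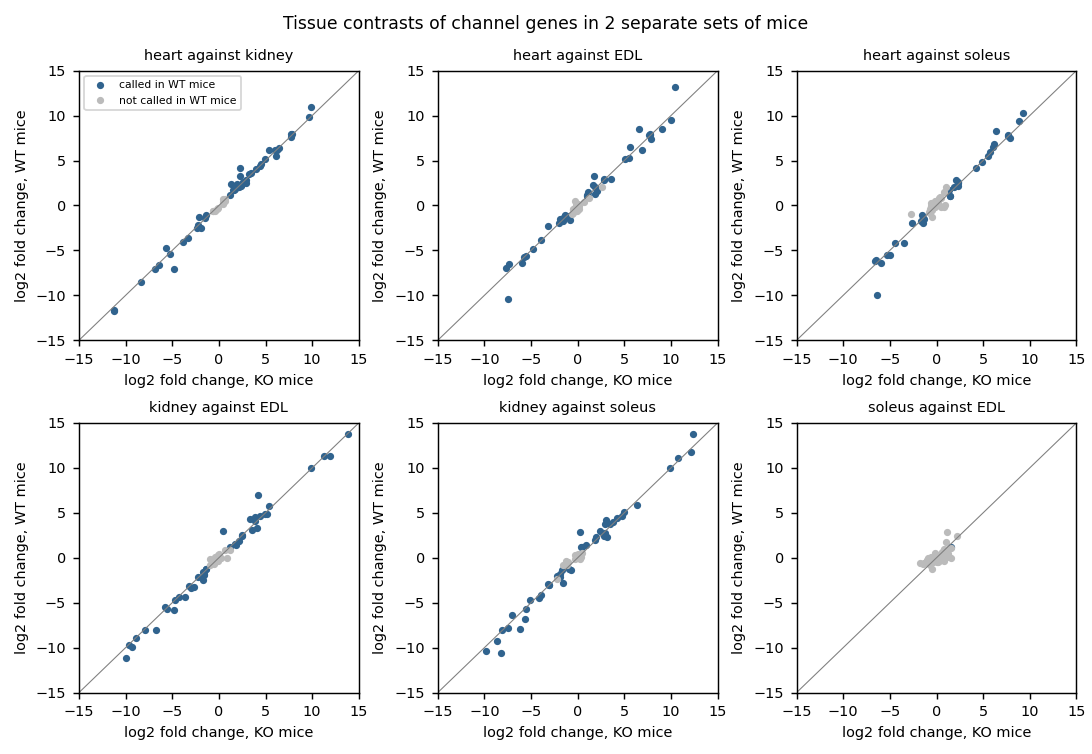
Log2 fold changes of members in KO mice (horizontal axis) and in WT mice (vertical axis), 1 panel for each of the 6 tissue comparisons and 1 point per member, blue where it was called in WT mice, with the line of equal values. Points lie along that line in the comparisons of heart, kidney and muscle, and in soleus against EDL they gather near 0, with Kcna5 at 1.52 in KO and 1.18 in WT mice.

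KO and WT mice were then compared in each tissue. No member was called by the edgeR quasi-likelihood test in any of the 9 tissues. The share of all genes called was 0% in heart, kidney, liver, lung and spleen, 0.00771% in soleus, 0.0081% in tibialis, 0.00777% in EDL and 0.00792% in gastrocnemius. At an unadjusted p under 0.05 there were 1 of 46 tested members in heart, 0 of 47 in kidney, 0 of 15 in liver, 0 of 56 in lung, 0 of 39 in spleen, 7 of 36 in soleus, 0 of 27 in tibialis, 2 of 33 in EDL and 1 of 34 in gastrocnemius. Of all tested genes 3.13% had such a p in heart, 3.35% in kidney, 1.57% in liver, 2.06% in lung, 0.846% in spleen, 17.2% in soleus, 1.77% in tibialis, 4.58% in EDL and 1.95% in gastrocnemius. DESeq2 called 1 member, Kcnma1 in soleus (log2 fold change 0.39, DESeq2 adjusted p = 0.0358), where it called 165 of all 12965 tested genes and edgeR 1. DESeq2 had 1 member under an unadjusted 0.05 in heart, 1 in kidney, 8 in soleus, 4 in EDL, 1 in gastrocnemius and 0 elsewhere. In every tissue the KO and WT libraries overlapped for each tested member. Such overlap was not counted over all genes, so it describes the members without a background.

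Soleus held the smallest p-values. Kcnma1 was at 93.8, 84.1, 86.4, 101 and 127 CPM in KO soleus, against 88.4, 74.9, 67.7, 61.2 and 66.2 CPM in WT soleus, with the highest WT library, 3793543, inside the KO range, and a log2 fold change of 0.40 (SE 0.11, edgeR adjusted p = 0.238). Without the KO library of mouse 3805666 Kcnma1 stood at 0.31. Kcnf1 averaged 1.97 ± 1.25 CPM in KO and 5.14 ± 3.11 CPM in WT soleus (SD, n = 5 each), at -1.44 (SE 0.48, edgeR adjusted p = 0.238). In EDL Kcnma1 averaged 50.5 ± 4.20 CPM in KO and 51.4 ± 2.82 CPM in WT mice (SD, n = 5 each).

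In the other tissues the members of smallest p did not pass the adjusted threshold either. In heart they were Kcnt1, at 1.79 CPM in KO and 1.25 CPM in WT mice on average (0.54, SE 0.20, edgeR adjusted p = 0.999), Kcnc1 (-0.60) and Kcnq1ot1 (0.08). In kidney Kcnk5 averaged 89.9 CPM in KO and 109 CPM in WT mice (-0.31), beside Kcnq1ot1 (-0.13) and Kcnt2 (0.31). In liver Kcnk5 averaged 29.0 CPM in KO and 34.9 CPM in WT mice (-0.26), beside Kcnj10 (-0.63) and Kcnn2 (0.13). In EDL Kcnu1 (0.82), Kcnn2 (0.56) and Kcnf1 (-0.80) led, in tibialis Kcna1 (-0.39), Kcnab1 (0.34) and Kcne4 (-0.32), and in gastrocnemius Kcna2 (-0.23) and Kcnn3 (0.32). In lung they were Kcnq5 (0.25), Kcnq1 (0.12) and Kcna1 (0.34), and in spleen Kcnc1 (0.32), Kcnma1 (-0.23) and Kcnj2 (0.12).

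**Figure D4:**
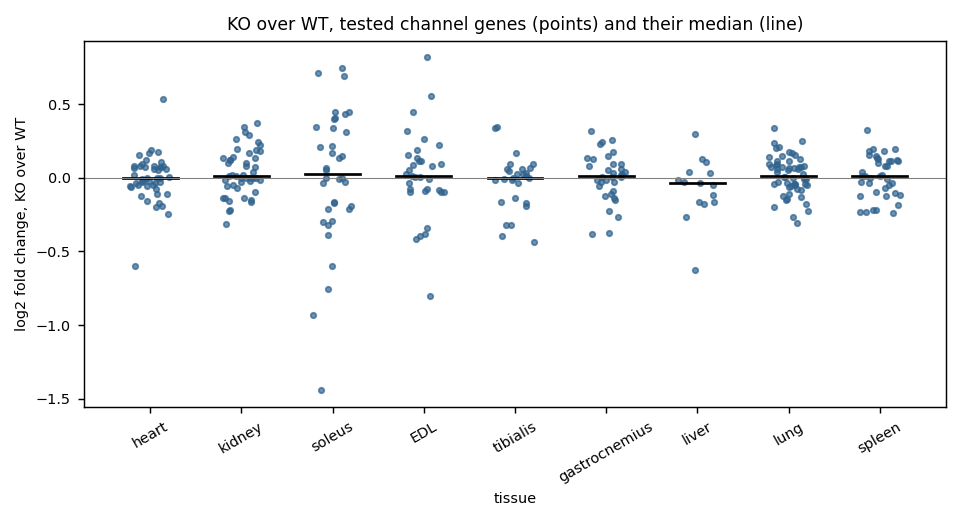
Log2 fold change of KO over WT mice, 1 point per tested member and 1 column of points per tissue, spread sideways for legibility, with the median as a black line. The lowest point is Kcnf1 in soleus at -1.44 and the highest Kcnu1 in EDL at 0.82.

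Some soleus channel levels moved with the amount of Myh4. In the KO library of mouse 3805666, with Myh4 at 89.7 CPM, 5 of the 16 members at 1 RPKM or more lay above and 5 below all other 9 soleus libraries, and 6 lay inside. The same positions were not counted over all genes, so these counts have no background. Kcnma1 was at 21.6 RPKM in that library, against 10.4 to 17.1 RPKM in the other 9. Kcnc4 was at 0.672 RPKM, against 5.32 to 14.2 RPKM in the other soleus and 11.6 to 25 RPKM in the EDL libraries, and Kcng4 at 0.367 RPKM, against 1.48 to 3.20 RPKM. Kcna7, Kcne4 and Kcnj8 were also above, and Kcnj12, Kcnn1 and Kcnq5 also below, the other 9. Over those other 9 libraries, 16 members were correlated with log2 Myh4 CPM. Kcnma1 had Pearson's r = -0.93 (exact permutation p = 0.000708, adjusted over the 16 p = 0.0113), Spearman's rho = -0.90 (exact p = 0.00203) and r = -0.86 without the 2 libraries farthest from the median of Myh4. Of the 16 members 14 did not pass the adjustment, among them Kcnc4 with r = 0.76 (exact permutation p = 0.0255, adjusted p = 0.136). Myh4 moved with genotype, since the KO libraries among the 9 lay at 27370 to 38380 CPM and 4 of the 5 WT libraries at 50720 to 65550 CPM. No correlation is given within genotypes, which had 4 KO and 5 WT libraries. Within the 5 WT libraries, in the order of Myh4 from 28330 through 50720, 52570 and 61270 to 65550 CPM, Kcnma1 stood at 15, 12.6, 11.5, 11.2 and 10.4 RPKM, the reverse order. Within the 4 KO libraries, at 27370, 30710, 32610 and 38380 CPM of Myh4, it stood at 15.8, 14.6, 17.1 and 14.3 RPKM, with no such order. The part of fibre makeup in the difference between KO and WT soleus was not tested.

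**Figure D5:**
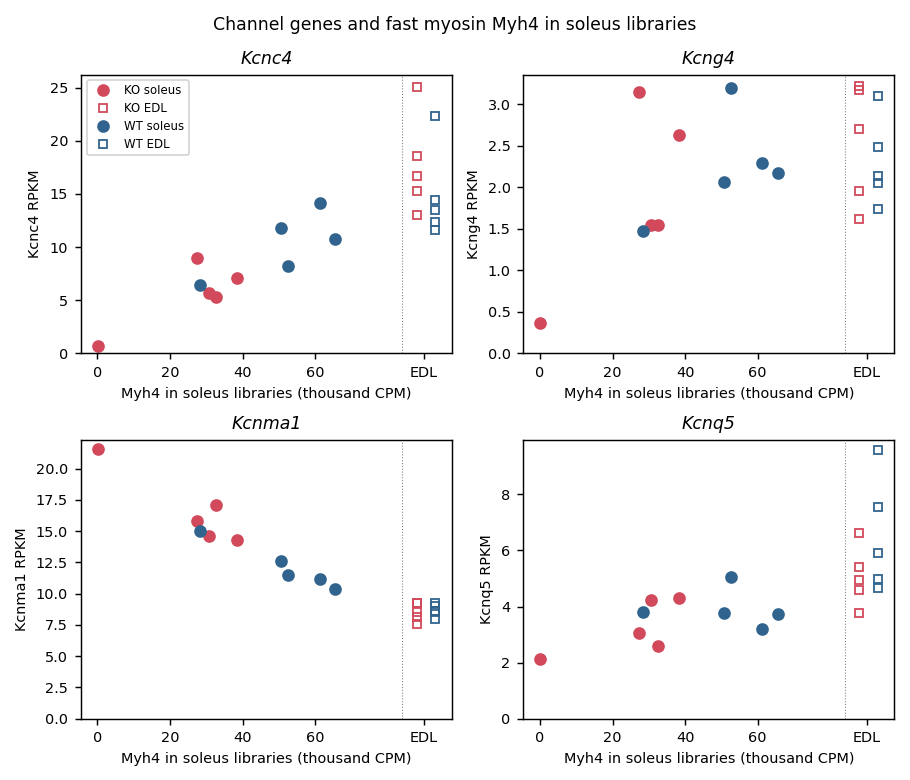
RPKM of Kcnc4, Kcng4, Kcnma1 and Kcnq5 in the 10 soleus libraries (filled circles) against their Myh4 level in units of 1000 CPM on linear axes, with the EDL libraries (open squares) set apart on the right, KO in red and WT in blue. The KO library of mouse 3805666 lies at the left edge, with Kcnma1 at 21.6 RPKM, above the other soleus libraries, and Kcnc4 at 0.672, Kcng4 at 0.367 and Kcnq5 at 2.11 RPKM, below them.

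Lung, spleen and liver had members of their own. In lung Kcnj15 was again first, at 29.7, 27.7, 32.8, 32.9 and 33.7 RPKM in KO mice, against 27.2, 28.4, 28, 31.8 and 31.1 RPKM in WT mice. Kcne2 (MiRP1), a small partner of Kv channels, was at 14.6, 17.1, 15.8, 17.6 and 15.1 RPKM in KO lungs, against 18.7, 16.9, 19.3, 15.7 and 16 RPKM in WT lungs, and at most 0.0123 RPKM in the WT mean of any other tissue. Kcnk2 (TREK-1), a stretch-sensitive two-pore channel, was at 13.6, 14.4, 14.5, 16 and 15.2 RPKM in KO lungs, against 15.4, 14.4, 13.2, 17.8 and 15.6 RPKM in WT lungs, and under 1 RPKM in all other WT tissue means. Kcnj13 (Kir7.1), Kcnrg and Kcns3 averaged 8.74, 8.42 and 6.64 RPKM in KO and 9.73, 7.95 and 6.27 RPKM in WT lungs, of which Kcnj13 and Kcnrg overlap a gene on the other strand. The BK auxiliary subunits Kcnmb2 and Kcnmb4 reached 3.71 and 3.79 RPKM in WT lung and no more than 0.74 RPKM elsewhere. Cardiac markers were also read in lung: of the WT heart level in CPM, WT lung held 0.499% for Myh6, 0.863% for Tnnt2 and 28.8% for Myl7, against 2.42% for Kcnj3, 2.6% for Kcnj5, 1.22% for Kcnip2, 0.257% for Kcng2, 8.99% for Kcnk3 and 11.9% for Kcnh2. The part of cardiac RNA in the lung levels was not tested.

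In spleen the calcium-activated channel Kcnn4 (KCa3.1) and the voltage-gated Kcna3 (Kv1.3), the potassium channels of lymphocytes, were present with the Kv beta subunit Kcnab2. Kcnn4 was at 22.2, 30.5, 26.1, 24.9 and 26.4 RPKM in KO spleens, against 28.4, 25.8, 20.3 and 29.9 RPKM in WT spleens. Kcnab2 was at 25.2, 24.8, 24.4, 20.8 and 25.7 RPKM in KO spleens, against 28.1, 22.3, 19.9 and 27.5 RPKM in WT spleens. Kcna3 was at 7.11, 5.83, 6.32, 5.98 and 6.75 RPKM in KO spleens, against 8.53, 7.74, 4.39 and 6.75 RPKM in WT spleens, so that the groups overlapped for all 3 genes. Outside spleen and lung they averaged at most 0.56 RPKM in WT tissues, and the lymphocyte marker sum was 1677 to 1745 CPM in WT spleen and 47.4 to 73.7 CPM in WT lung. Spleen also held Kcnj10 and Kcnj16, at 29.7 and 27.3 CPM in KO and 28.6 and 25.7 CPM in WT mice, whereas Kcnj15 was at 0.22 RPKM in WT spleen. Liver had few channels. Kcnn2 (SK2) was at 9.73, 10.4, 11.1, 11 and 12.1 RPKM in KO livers, against 9.2, 9.85, 10.6, 10.2 and 9.83 RPKM in WT livers, its highest level in any tissue. Kcnk5 was at 8.1, 9.1, 7.98, 7.3 and 10.6 RPKM in KO livers, against 7.7, 9.34, 12.8, 9.93 and 12.2 RPKM in WT livers, and both genes overlapped between the genotypes.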

How the data were processed

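Polyadenylated RNA of 9 tissues was made into stranded libraries, per the labels' protocols, and the submitters' processing notes name mm10. Aligner, counting tool and use of strand are not given in the sources used here. Each gene table that was deposited has its own unit. The first holds expected counts per gene as the authors made them, of which 85.72% were whole numbers (within 1e-06 reads), and they were rounded before the fits, where the design had assumed raw counts. The deposited RPKM table holds those counts per exon length and library total: the median ratio to a recomputed RPKM was 0.9997 to 1.0 over genes with at least 200 counts. For 24 of 72 members checked, however, the deposited RPKM differed by more than 2% from counts over annotated exon length in some library, and for 4 (Kcnd3, Kcne3, Kcnj10 and Kcnk3) by more than 1.5 times, so those values use another length in some libraries. RPKM was used for levels and for part of the check for outlying libraries by Dixon's ratio, never in a test between groups. A further 22 marker sequences, 0 to 0.0323% of a library, were left out.

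Tests were run in R 4.3.3 with edgeR 4.0.16 (robust quasi-likelihood fits after TMM scaling, with filterByExpr at a minimum count of 10 and total of 15), with Benjamini-Hochberg adjustment over all tested genes and a threshold of 0.05, plus 2-fold in the tissue comparisons. Standard errors came from the F statistic. KO and WT were compared within each tissue, and tissues within WT mice. Libraries of a group come from different mice. The limit that 0 reads allow was 3 reads per library, which covers counting error only. Of 172 pairs of replicates the smallest chi-square per gene was 5.05, so none was a copy. Animal identifiers in the labels pair tissues of a mouse, and over 27 pairs the mean correlation of deviations was 0.13 (17 above 0.1), against -0.03 for other mice. Python 3.11.15 with pandas 2.3.3, numpy 2.4.6, scipy 1.17.1 and matplotlib 3.10.9 did the rest, and the fits were tested on simulated data. Of the members 12 overlap another gene by span, all on the opposite strand, so their counts are uncertain.

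Named are up to 6 members each way of largest fold per tissue comparison at 1 CPM or more, the 3 of smallest p per genotype comparison, and a list of 29 fixed members. The genes and lists were chosen with earlier results of these data known. The correlations with Myh4 and Myl7, the CG counts, the choice of promoters, the scaling to library totals and the omission of KO soleus 3805666 were chosen after seeing the data. The alternatives were DESeq2 1.42.0 (size factors and Wald test), no filter, no fold threshold, library totals, other muscles for EDL, KO mice, the mouse or age-matched sets as a block and each mouse left out. Some genes are not reported here, although they entered the fits and the counts.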

Additional observations from a re-analysis of the deposited data

Results flagged for a closer look

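Each member named in a tissue, and the 4 most abundant WT members per tissue, were checked for a library far from the rest of its group of 4 or 5, with the gap to the nearest library set against the range of the group (Dixon's ratio). Of 188 groups 9 had such a library, and chance gives about 1 in 20. In KO EDL the highest Kcnc1 level was 85.9 CPM in mouse 3817943, with 55.8 to 63.4 CPM in the other 4. In KO hearts the lowest Kcnv2 level was 11.1 CPM in mouse 3793546, with 13.0 to 13.7 CPM in the other 4. In KO spleens the lowest Kcnab2 level was 20.8 RPKM in mouse 3805676, with 24.4 to 25.7 RPKM in the others, and the lowest Kcnj8 level was 10.1 RPKM in mouse 3817943, with 15.7 to 17.7 RPKM in the others. In WT EDL the highest Kcnc4 level was 22.4 RPKM in mouse 3805657, with 11.6 to 14.4 RPKM in the others, and the lowest Kcnj2 level was 14.6 RPKM in mouse 3817948, with 22.5 to 23.9 RPKM in the others. In WT spleens the highest Kcnc1 level was 3.57 CPM in mouse 3793543, with 3.17 to 3.21 CPM in the others.

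Kcnj10 was flagged in both spleen groups, with 15.6 RPKM in KO mouse 3817943 against 4.42 to 6.46 RPKM in the other KO spleens, and 14.2 RPKM in WT mouse 3805673 against 4.91 to 5.88 RPKM in the other WT spleens. In CPM these libraries stood at 35.8 CPM, with 21.5 to 34.1 CPM in the other KO spleens, and at 32.4 CPM, with 24.8 to 30.2 CPM in the other WT spleens. In both libraries the deposited Kcnj10 RPKM was 2.36 times the value from its counts and annotated exon length.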

How the results depend on the processing

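Counts of called members stayed within 1.5 times in 279 combinations of count and alternative and moved further in 13. Of the named values under alternatives 2120 kept direction and call, 34 lost and 1 gained the call and 1 reversed. Those outside were mostly the small counts of soleus against EDL. Members higher in soleus numbered 1 in the WT mice by edgeR, 2 by the DESeq2 Wald test, 5 in KO mice, 5 in KO mice without soleus 3805666, 3 with tibialis and 2 with gastrocnemius in place of EDL, 4 without a fold threshold, and 1 to 2 with single mice left out (2 without 3793553). Members lower numbered 0, then 5 in KO mice, 4 without soleus 3805666, 3 with tibialis, 1 with gastrocnemius and 5 without a fold threshold. For KO against WT soleus the Wald test called 1 and edgeR 0. Kcnn3 in heart against EDL reversed to 0.20 with gastrocnemius in place of EDL. The causes were not tested. With the mouse as a replicate block 32 members were higher and 16 lower in heart than in kidney, and 1 was higher and 0 lower in soleus than in EDL. All 139 named values checked with this block kept direction and call, and all 12 counts of called members stayed within 1.5 times. Under library totals members lower in heart than in EDL numbered 12, without a matching share of all genes, and 8 named values lost the call. Depth limits members under 3 reads, for which no difference could be detected.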
